A study of Rattus norvegicus with 102 samples.

Results

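The genes described here are the Wnt ligands, their Frizzled receptors and the secreted inhibitors of the Sfrp and Dkk families in the rat hippocampus. They were taken as every entry of the expression tables whose gene symbol begins with Wnt, Fzd, Sfrp or Dkk and a digit, which gave 36 of 26284 genes in the Illumina table, and 36 of 26341 in the Ion Proton table. Of these, 19 were Wnt ligands, 9 Frizzled receptors, 4 Sfrp genes and 4 Dkk genes. The symbols Wnt3 and Fzd8 were each carried by 2 entries with different Ensembl identifiers. No entry was named Wnt3a, so whether one of the Wnt3 entries holds that gene is unknown, and each is named by its identifier.

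RNA had been sequenced from CA1, CA3 and the dentate gyrus (DG) of 34 male Fischer 344 rats, of which 10 were young (5 to 6 months old) and 24 aged (17 to 22 months old). A water maze test of spatial learning had split the aged rats into 12 unimpaired and 12 impaired animals, and the labels name no transgene and no drug treatment. Each rat gave 1 library per subfield, 102 in each of 3 tables: poly-A RNA on an Illumina HiSeq, poly-A RNA on an Ion Proton, and a table the submitters named WT whose library type is not given in the sources used here. One hippocampus per rat had been divided along its length, and CA2 and the subiculum were not taken as pieces of their own. Values are normalised read counts, that is, reads per gene divided by a size factor per library, and they compare samples for 1 gene but not genes with each other, since they were not divided by gene length. In such tissue pieces, fewer cells of a type and less RNA per cell cannot be told apart.

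Wnt proteins are secreted lipid-modified signals that bind a Frizzled receptor together with a co-receptor such as Lrp5 or Lrp6. Binding can stabilise beta-catenin, which acts in the nucleus with transcription factors of the TCF/LEF family, or can act through planar polarity and calcium arms that do not need beta-catenin. Sfrp proteins bind Wnt ligands outside the cell, while the classical Dkk proteins bind the Lrp co-receptors. In the hippocampus the pathway is known for its part in the formation of the structure, in the birth of dentate granule neurons and in synapse assembly.

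Promoters are printed for members with a mean of at least 10 normalised reads: the 3 called higher in CA1 than in both other subfields, and the ligand called highest in the DG. They show the sequence next to the starts of these genes. They are the 250 bases before the annotated start, 5′ to 3′ on the strand of the gene, from RefSeq on the GRCr8 build, which is not the build of the expression tables. Capitals mark the GC box letters GGGCGG, or CCGCCC for a match on the other strand. Wnt2 lies on the minus strand at chr4:47340285-47340534, Fzd7 on the plus strand at chr9:68425288-68425537, Wnt9a on the plus strand at chr10:44593441-44593690 and Wnt4 on the plus strand at chr5:154797200-154797449.
Wnt2: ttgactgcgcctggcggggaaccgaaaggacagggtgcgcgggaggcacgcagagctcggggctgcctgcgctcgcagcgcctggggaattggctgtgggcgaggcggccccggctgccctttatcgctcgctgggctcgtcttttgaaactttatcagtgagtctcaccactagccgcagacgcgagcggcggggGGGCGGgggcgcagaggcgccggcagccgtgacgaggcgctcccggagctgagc
Fzd7: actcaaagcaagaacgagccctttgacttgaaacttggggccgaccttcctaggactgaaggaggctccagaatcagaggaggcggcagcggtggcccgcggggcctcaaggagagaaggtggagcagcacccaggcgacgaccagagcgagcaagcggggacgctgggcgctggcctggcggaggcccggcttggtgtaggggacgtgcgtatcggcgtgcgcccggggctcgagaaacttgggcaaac
Wnt9a: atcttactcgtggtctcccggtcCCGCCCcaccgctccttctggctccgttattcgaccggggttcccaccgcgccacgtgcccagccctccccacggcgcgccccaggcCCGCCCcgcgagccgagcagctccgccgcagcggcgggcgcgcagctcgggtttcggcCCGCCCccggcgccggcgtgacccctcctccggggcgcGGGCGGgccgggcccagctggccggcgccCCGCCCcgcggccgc
Wnt4: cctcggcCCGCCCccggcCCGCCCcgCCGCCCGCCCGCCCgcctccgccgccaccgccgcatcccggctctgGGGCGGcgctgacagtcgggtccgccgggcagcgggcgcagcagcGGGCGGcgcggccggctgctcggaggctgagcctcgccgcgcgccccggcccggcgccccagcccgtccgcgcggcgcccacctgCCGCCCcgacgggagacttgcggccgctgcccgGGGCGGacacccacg

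The window of Wnt4 held 9 GC boxes, that of Wnt9a 5, that of Wnt2 1 and that of Fzd7 0. The GC content was 86.4% for Wnt4, 81.2% for Wnt9a, 70.4% for Wnt2 and 65.6% for Fzd7, beside a median of 64.8% over the 23 members with a window and 51.2% over all 33469 windows. A GC box stood in 11 of the 23 member windows and in 30.5% of all windows. TCF/LEF letters (CTTTGAA or CTTTGAT or CTTTGTA or CTTTGTT, both strands) stood in 3 of 23 member windows, those of Dkk1, Sfrp5 and Wnt8a, and in 14.9% of all windows. Some of the searched TCF/LEF letters share their first bases, but none overlaps the GC box. These matches describe letters and say nothing of whether a factor bound there.

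Illumina libraries held 3246922 to 42750899 reads with a median of 10745742, and Ion Proton libraries 4470473 to 21434160 with a median of 9738395. Of the libraries, 12 (1 CA1, 9 CA3 and 2 DG, from 9 rats) were nearer to another subfield than to their own label in both poly-A tables, and 8 of these 9 rats had numbers of 9000 or above. All 12 came from aged rats, so that 9 of 24 aged and 0 of 10 young CA3 libraries were among them. The summed level of 5 CA3 pyramidal cell markers had a median in CA3 libraries of 9701 in the 18 rats numbered below 9000, and of 3209 in the 16 rats numbered from 9000, whereas in DG libraries it was 7742 and 8005. The CA3 marker genes were therefore no higher in the CA3 than in the DG libraries of the higher-numbered rats. They were also no higher there than in the CA1 libraries of these rats, where the median was 4242. The summed CA1 pyramidal cell markers had a median in CA3 libraries of 953 in the lower and 2246 in the higher series. Comparisons over all rats used the subfield labels as given. Per the study's methods the rats were obtained from more than 1 colony and tested at a pair of sites. The lower series held 5 young and 13 aged and the higher 5 young and 11 aged rats, which are also the group sizes of the sites, but the labels tie no rat to a site. If the series are the sites, a difference between them cannot be told apart from one of colony or site, and the subfield differences of the called members are given for both series after the account of the inhibitors. In 10 libraries (6 CA1, 3 CA3 and 1 DG) the summed markers of leptomeninges or choroid plexus, tissues that lie against the hippocampus, exceeded 10 times the median of all libraries. Of 33 members with reads in the Illumina table, 12 had their highest value in the CA3 library of young rat R9876, whose leptomeninges sum was 31294 beside a median of 720.8.

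Members were compared between subfields with limma across all genes. The call of a gene required a Benjamini-Hochberg adjusted p under 0.05 and 1 direction in the Illumina and in the Ion Proton table. A mean of at least 10 normalised reads over the libraries was required, which 27 members passed in each poly-A table and 26 in both. A member could pass through a single subfield in which it was high. Between CA1 and CA3, 4 of 26 members (15.4%) were called, and 14.4% of all genes were. Between CA1 and DG, 9 of 26 (34.6%) were called, beside 26.9% of all genes, and between CA3 and DG 10 of 26 (38.5%), beside 28.5% of all genes. In the Illumina table alone, an adjusted p under 0.05 was reached by 10 of 27 members between CA1 and CA3 (37.0%, beside 35.4%), and by 19 of 27 both between CA1 and DG (70.4%, beside 55.6%) and between CA3 and DG (70.4%, beside 55.6%). The members' shares thus lay close to or somewhat above those of all genes. Their median absolute log2 difference in the Illumina table was 0.32 between CA1 and CA3, 0.39 between CA1 and DG and 0.40 between CA3 and DG, beside 0.09, 0.13 and 0.13 over all genes tested. Called in the same direction against both other subfields were 4 members in CA1 (15.4%, beside 5.71% of all genes), 1 in CA3 (3.85%, beside 6.29%) and 4 in DG (15.4%, beside 15.1%). Fzd7 counted in both CA1 and DG, and Wnt9a in both CA1 and CA3, since each was ordered over all 3 subfields.

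**Figure D1:**
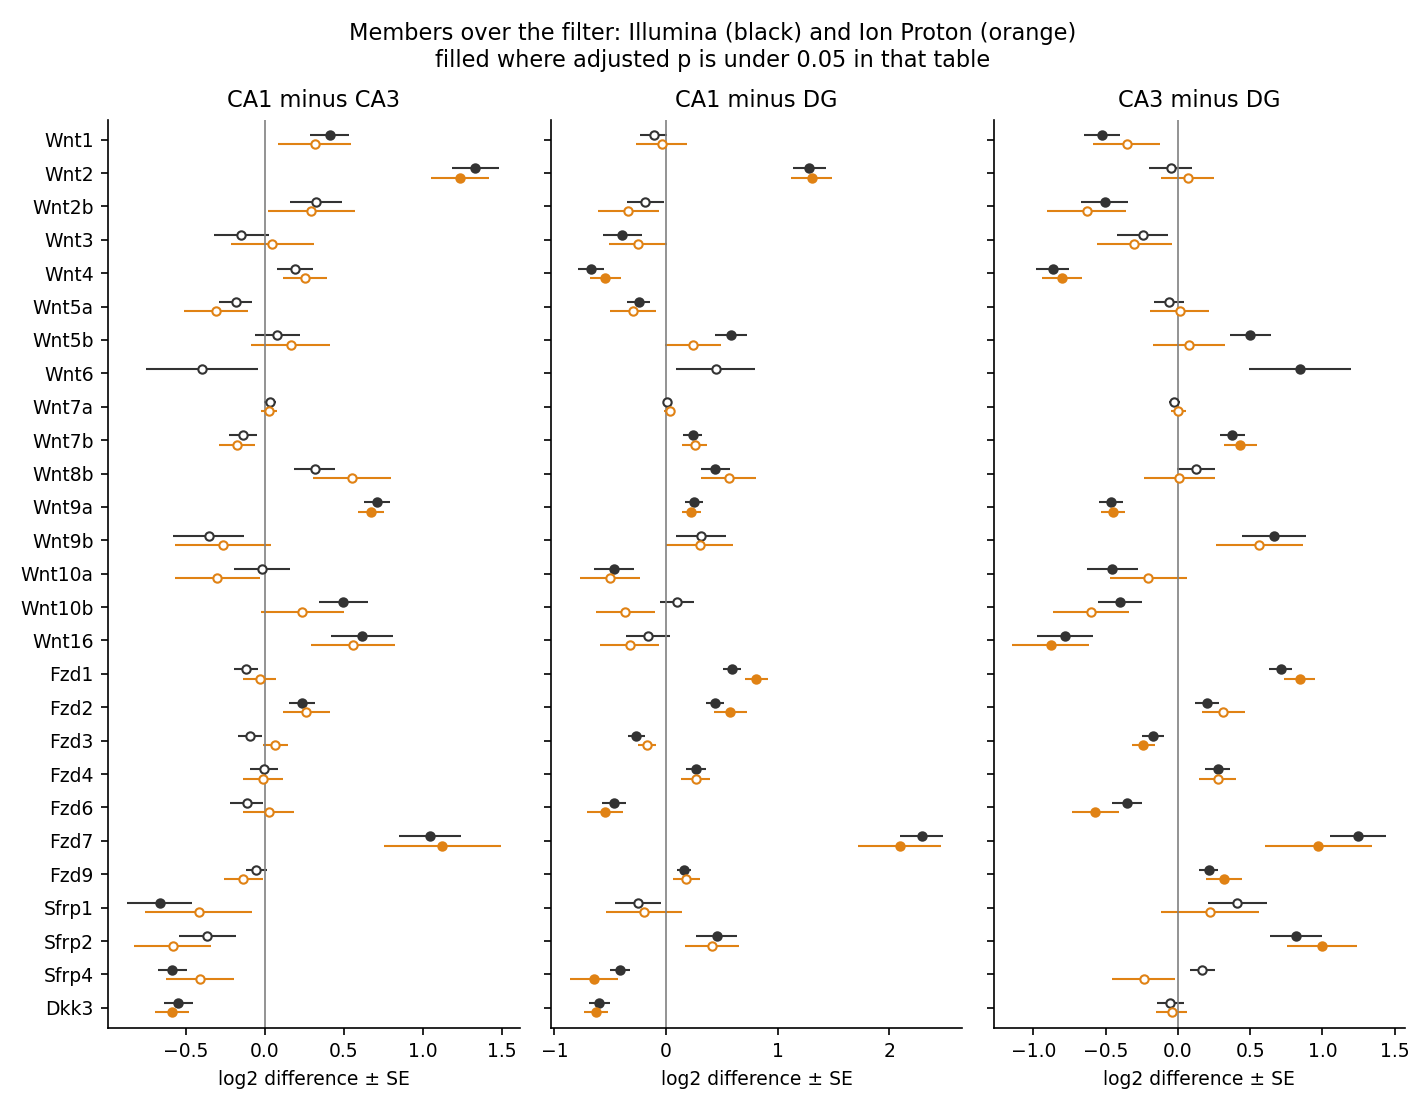
Log2 difference between subfields, with its standard error, for each member that passed the mean of 10 (CA1 minus CA3, CA1 minus DG and CA3 minus DG in 3 panels, black for Illumina, orange for Ion Proton, filled points for an adjusted p under 0.05 in that table). Wnt2 and Fzd7 stand farthest to the CA1 side in the comparison with CA3, Fzd7 at 2.29 in the comparison of CA1 with DG, and Wnt4 on the DG side in both comparisons with DG.

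Among the ligands past the mean of 10, Wnt2, a ligand known from lung development, had the largest CA1 excess. Its Illumina level ran from 68.3 through a median of 203.9 to 505 in CA1, from 31.8 through 85.6 to 269 in CA3 and from 44.4 through 82.4 to 235 in DG. CA1 libraries were the highest as a group, but the 3 ranges overlapped, and over all rats CA3 minus DG was -0.05 ± 0.15 log2 (SE), but it was 0.50 (adjusted p = 0.0119) in rats numbered below 9000 and -0.67 (adjusted p = 0.00991) in rats from 9000. Wnt2 was higher in CA1 than in CA3 by 1.33 ± 0.15 on the log2 scale (SE, adjusted p = 2.88e-12, higher in 32 of 34 rats) and than in DG by 1.28 ± 0.15 (adjusted p = 3.58e-12, 32 of 34 rats). In the Ion Proton table the differences were 1.24 ± 0.18 and 1.303 ± 0.184. Within rats, the difference of CA1 from CA3 averaged 1.52 ± 0.73 (SD, n = 10) in young, 1.34 ± 1.01 (n = 12) in aged unimpaired and 1.18 ± 0.66 (n = 12) in aged impaired rats, so it was present in all 3 groups.

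Wnt9a, a ligand of the beta-catenin arm, was ordered CA1 over DG over CA3. Its level ran from 109 through a median of 269 to 353 in CA1, from 116 through 221 to 346 in DG and from 79.4 through 165 to 241 in CA3. The ranges overlapped, while within rats CA1 exceeded CA3 in 33 of 34 animals. The CA1 excess over CA3 was 0.71 ± 0.08 log2 (SE, adjusted p = 1.11e-11), that over DG 0.25 ± 0.08 (adjusted p = 0.00776, 28 of 34 rats), and CA3 lay below DG by 0.46 (log2 difference -0.46 ± 0.08, adjusted p = 1.16e-06, lower in 26 of 34 rats). The Ion Proton differences were 0.67 ± 0.08, 0.23 ± 0.08 and -0.45 ± 0.08. Wnt9a was the only member called for CA3 against both other subfields.

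Wnt4, a ligand known from kidney and ovary development, was highest in DG. It ran from 207 through a median of 533 to 719 in DG, from 94.2 through 322 to 528 in CA1 and from 52.4 through 303 to 437 in CA3. Most DG libraries stood above the medians of both other subfields, and CA1 minus CA3 was 0.19 ± 0.11 log2 (SE, adjusted p = 0.187). This small CA1 excess passed in rats numbered below 9000 (0.22, adjusted p = 0.0102) and without the 10 libraries high in leptomeninges or choroid plexus markers (0.30, adjusted p = 0.0271). CA1 lay below DG with a log2 difference of -0.67 ± 0.11 (SE, adjusted p = 3.86e-07, lower in 31 of 34 rats) and CA3 below DG with -0.87 ± 0.11 (adjusted p = 2.54e-10, lower in 31 of 34 rats), and Ion Proton gave -0.55 ± 0.14 and -0.80 ± 0.14. Within rats the CA3 difference from DG was -0.74 ± 0.68 (SD) in young, -1.13 ± 0.99 in aged unimpaired and -0.71 ± 0.38 in aged impaired rats.

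**Figure D2:**
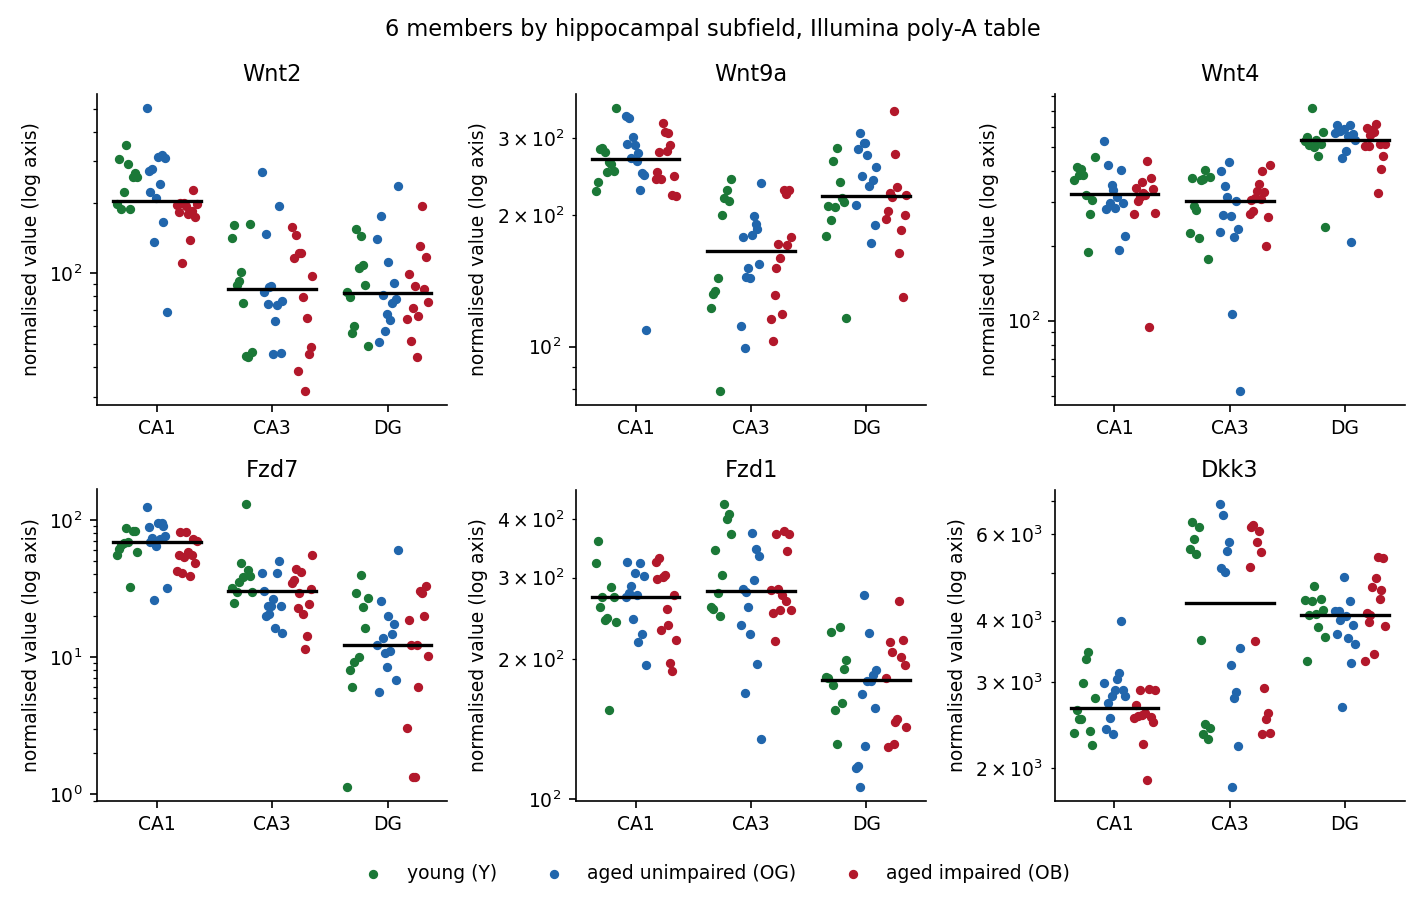
Normalised read counts (log axis) in the Illumina table of Wnt2, Wnt9a, Wnt4, Fzd7, Fzd1 and Dkk3 in CA1, CA3 and DG, with 1 point per library coloured by group (young, aged unimpaired, aged impaired) and a line at the median of the 34 libraries. The CA1 points of Wnt2 centre on 203.9 beside 85.6 in CA3 and 82.4 in DG, the DG points of Wnt4 centre on 533, and the groups are drawn side by side within each subfield.

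Wnt7a, a ligand known for its action on synapse assembly, was near the same level in the 3 subfields. Its level ran from 378 through a median of 436 to 531 in CA1, from 322 through 436 to 556 in CA3 and from 355 through 440 to 519 in DG. The 3 ranges lay on top of each other, and its largest difference was 0.03 ± 0.04 log2 (SE, CA1 against CA3) in the Illumina and 0.03 ± 0.05 (CA1 against DG) in the Ion Proton table. In the WT table it was lower in CA1 than in DG, with a log2 difference of -0.10 ± 0.04 (SE, adjusted p = 0.036, lower in 23 of 34 rats). Its close relative Wnt7b, which also signals to blood vessels in the brain, was higher in CA3 (mean 373 ± 96.9 SD) than in DG (284 ± 65.9) by 0.38 ± 0.09 log2 (SE, adjusted p = 1.62e-04, 29 of 34 rats). Wnt16, a ligand of bone and blood cell development, was lower in CA3 than in DG, with a log2 difference of -0.78 ± 0.19 (SE, adjusted p = 3.84e-04, lower in 26 of 34 rats).

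No other ligand passed in both poly-A tables. Wnt5a, the best known ligand of the planar polarity arm, had means of 31.8 in CA1, 36.5 in CA3 and 38.04 in DG. The remaining ligands past the mean of 10 in the Illumina table (Wnt1, Wnt2b, Wnt5b, Wnt6, Wnt8b, Wnt9b, Wnt10a, Wnt10b and Wnt3 of ENSRNOG00000003845) had means between 1.99 and 46.2 in any subfield. The mean of Wnt6 was set by a few libraries: its DG values reached 9.70, while 1 CA3 library, that of rat R9876, stood at 620 and the CA3 median was 2.37.

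The entries named Wnt3 differed from each other. The entry ENSRNOG00000003039 lay under the mean of 10 over all libraries and had no test under that filter, so its differences were taken from the fit without it. Its Illumina level ran from 1.45 through a median of 11.3 to 41.2 in CA1, where all 34 libraries had reads. In CA3 11 of 34 libraries had reads, the median was 0 and the highest value 6.26, and in DG 16 of 34 had reads, the median was 0 and the highest value 17.97. The CA1 level exceeded that of CA3 by 2.93 ± 0.26 log2 (SE, adjusted p = 3.01e-16, higher in 33 of 34 rats) and that of DG by 2.48 ± 0.26 (adjusted p = 6.11e-14, 32 of 34 rats). These sizes depend on the added count of 1, since most CA3 and DG libraries were at 0. In the Ion Proton table the differences were 2.18 ± 0.28 and 1.87 ± 0.28, and CA1 was the higher in 28 and CA3 in 0 of 34 rats. In the Illumina table the mean within-rat difference of CA1 from CA3 was 2.80 ± 1.25 (SD, n = 18) in rats numbered below 9000 and 3.07 ± 1.36 (n = 16) in rats from 9000, and that from DG was 2.58 ± 0.89 and 2.36 ± 1.99.

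The entry ENSRNOG00000003845 was not highest in CA1 as a group. It ran from 5.09 through a median of 12.5 to 64.4 in CA1, from 0 through 17.8 to 29.7 in CA3 and from 4.72 through 18.8 to 39.6 in DG. Its ranges overlapped widely, with a CA1 minus CA3 difference of -0.15 ± 0.17 log2 (SE, adjusted p = 0.54). It was lower in CA1 than in DG in the Illumina table, with -0.39 ± 0.17 (adjusted p = 0.0484, lower in 24 of 34 rats), and the Ion Proton difference was -0.25 ± 0.26 (adjusted p = 0.487). Within rats that Illumina difference averaged -0.56 ± 0.53 (SD) in the lower and -0.20 ± 0.85 in the higher number series. Both entries name ligands of the beta-catenin arm if the symbol is right.

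**Figure D3:**
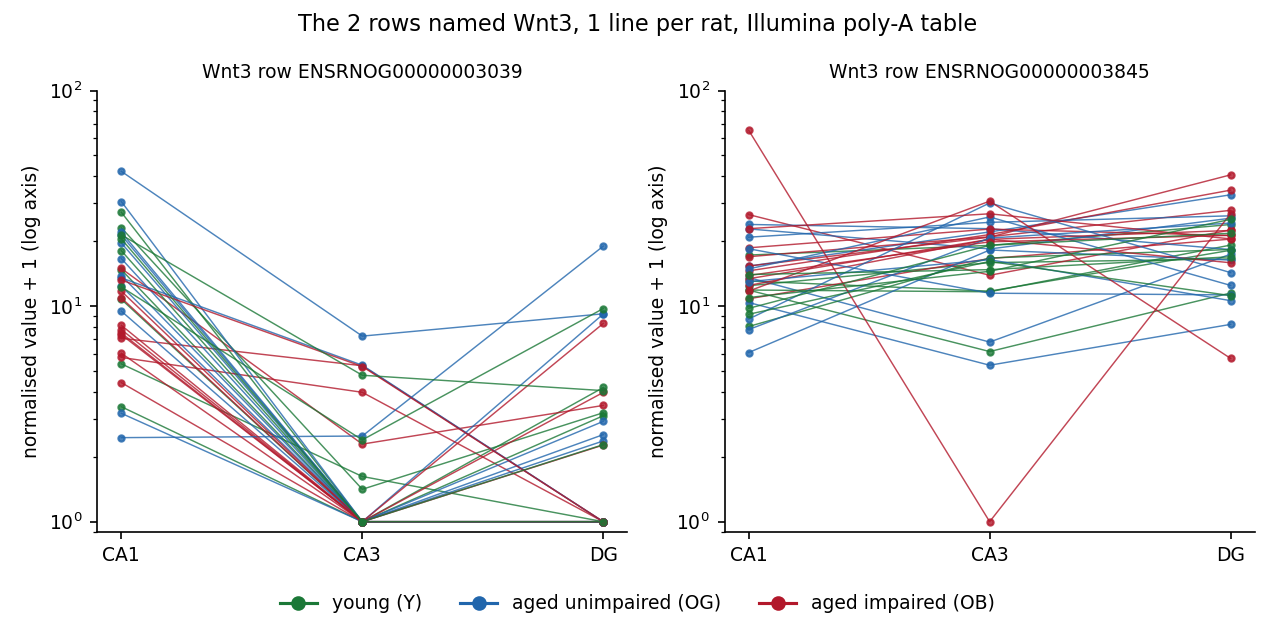
Normalised read count plus 1 (log axis, Illumina) of both entries named Wnt3 in CA1, CA3 and DG, with 1 line per rat. For ENSRNOG00000003039 most lines fall from a CA1 median of 11.3 to 0 in CA3 and DG, while for ENSRNOG00000003845 the medians are 12.5, 17.8 and 18.8.

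Among the receptors, Fzd7, which carries beta-catenin signals in many stem cell settings, had the largest subfield difference of the members that passed the filter. Its level ran from 26.2 through a median of 68.5 to 124 in CA1, from 11.4 through 30.3 to 131 in CA3 and from 1.14 through 12.3 to 59.9 in DG. The highest CA3 value was that of young rat R9876, the library with the highest leptomeninges markers, and the next young CA3 library stood at 48.5. CA1 exceeded CA3 by 1.04 ± 0.20 log2 (SE, adjusted p = 7.63e-06, 33 of 34 rats) and DG by 2.29 ± 0.20 (adjusted p = 4.08e-18, 32 of 34 rats), and CA3 exceeded DG by 1.25 ± 0.20 (adjusted p = 5.21e-08, 29 of 34 rats). The last difference was 1.82 in rats numbered below 9000 and 0.60 in rats from 9000, where it did not pass (adjusted p = 0.0538, and -0.11 in the Ion Proton table). The Ion Proton differences were 1.12 ± 0.37, 2.09 ± 0.37 and 0.97 ± 0.37. Without the 10 libraries high in leptomeninges or choroid plexus markers, Fzd7 was no longer called for DG against both other subfields, and the count for DG was 3 members of 26 (beside 12.3% of all genes).

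Fzd1, a receptor of the beta-catenin arm, was lower in DG than in either CA subfield. Its level ran from 106 through a median of 181 to 275 in DG, from 155 through 272 to 359 in CA1 and from 135 through 281 to 433 in CA3. CA1 minus CA3 was -0.12 ± 0.08 log2 (SE) over all rats, 0.13 (adjusted p = 0.199) in rats numbered below 9000 and -0.40 (adjusted p = 0.0139) in rats from 9000. CA1 and CA3 exceeded DG by 0.59 ± 0.08 log2 (adjusted p = 4.20e-10, 28 of 34 rats) and 0.71 ± 0.08 (adjusted p = 4.09e-13, 32 of 34 rats). Fzd6, a receptor known from hair follicle polarity, went the other way. It ran from 53.2 through a median of 87.5 to 167 in DG, from 30.1 through 61.5 to 125 in CA1 and from 37.5 through 72.5 to 142 in CA3. Its differences from DG were -0.47 ± 0.10 for CA1 (adjusted p = 8.20e-05, lower in 26 of 34 rats) and -0.35 ± 0.10 for CA3 (adjusted p = 0.0026, lower in 27 of 34 rats), with wide overlap between the groups.

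Of the other receptors, Fzd2 was higher in CA1 than in DG (0.44 ± 0.08 log2, SE), Fzd9 was higher in CA3 than in DG (0.21 ± 0.07), and Fzd3, a receptor needed for axon tract growth, was lower in CA3 than in DG (-0.17 ± 0.08). Fzd4, which also binds the non-Wnt ligand norrin, had means of 86.7, 89.1 and 72.1 in CA1, CA3 and DG and passed against DG in the Illumina but not in the Ion Proton table. Both entries named Fzd8 were at 0 in every Illumina and WT library, whereas in the Ion Proton table ENSRNOG00000038571 had means of 13.6 in CA1, 14.6 in CA3 and 10.2 in DG. There the other entry, ENSRNOG00000048236, had means of 8.36, 8.14 and 5.35 in the same order, under the filter. Why the tables differ for Fzd8 was not tested.

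Among the inhibitors, Dkk3, an atypical member of its family whose action on Lrp co-receptors is disputed, was lower in CA1. Its level ran from 1892 through a median of 2661 to 3985 in CA1, from 1837 through 4341 to 6926 in CA3 and from 2672 through 4115 to 5380 in DG. The CA3 libraries had the widest spread and covered the whole CA1 range. The CA1 difference was -0.55 ± 0.09 log2 from CA3 (SE, adjusted p = 1.06e-06, lower in 26 of 34 rats) and -0.60 ± 0.09 from DG (adjusted p = 5.71e-08, lower in 32 of 34 rats), and Ion Proton gave -0.59 ± 0.11 and -0.63 ± 0.11. Sfrp2, a Wnt-binding inhibitor, was higher in CA3 (71.4 ± 42.4 SD) than in DG (40.6 ± 22.9) by 0.82 ± 0.18 log2 (SE, adjusted p = 6.58e-05, 23 of 34 rats). Sfrp4 was lower in CA1 (23.0 ± 6.56) than in DG (30.9 ± 8.48), with a log2 difference of -0.41 ± 0.09 (SE, adjusted p = 5.17e-05, lower in 28 of 34 rats). Sfrp1 had medians of 12.7, 28.4 and 20.7 in CA1, CA3 and DG, and no comparison passed in both poly-A tables.

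The members under the mean of 10 in the Illumina table were Dkk1, Dkk2, Dkk4, both Fzd8, Sfrp5, Wnt8a, Wnt11 and the Wnt3 entry described above. Dkk1 was at 0 in all 102 Illumina libraries, Wnt8a did not exceed 1.26 normalised reads in any, and Dkk2, Dkk4 and Sfrp5 had means of 2.13 to 6.82. Wnt11, a ligand of the planar polarity arm, is added here after its values were seen. Its median was 12.7 in CA3, 7.11 in CA1 and 4.61 in DG, and without the filter CA3 exceeded DG by 1.00 ± 0.20 log2 (SE, adjusted p = 1.81e-05, 29 of 34 rats) in the Illumina and by 1.47 ± 0.28 in the Ion Proton table. Within rats the Illumina difference averaged 1.44 ± 0.78 (SD) in rats numbered below 9000 and 0.49 ± 1.36 in rats from 9000. In the Ion Proton table Wnt6 was under the filter in place of the first of the Fzd8 entries.

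Several comparisons that involved CA3 varied with the number series of the rats. Dkk3 in CA1 differed from CA3 by -1.13 ± 0.06 log2 (SE) in rats numbered below 9000 and by 0.11 ± 0.08 in rats from 9000, and its CA3 minus DG difference went from 0.50 to -0.67. Wnt9a exceeded CA3 in CA1 by 1.10 in the lower and 0.28 in the higher series, and its CA3 minus DG difference went from -0.87 to 0.00. In the higher series the CA1 minus CA3 difference was past the threshold for neither gene in the Illumina table (adjusted p = 0.429 for Dkk3 and 0.0765 for Wnt9a). Sfrp2, whose CA3 minus DG difference was 1.69 and -0.16, and Wnt16, with -1.46 and -0.01, also differed less in the higher series. The CA3 minus DG difference of Fzd6 was -0.46 and -0.23, and did not pass in the higher series (adjusted p = 0.243). That of Wnt7b was 0.28 and 0.49 and that of Fzd9 0.17 and 0.27, each past the threshold of the Illumina table in both series. That of Fzd3 was -0.17 and -0.18 and passed in neither alone (adjusted p = 0.139 and 0.203). These are the series in which CA3 markers in CA3 libraries had medians of 9701 and 3209, and the part of that in these values was not tested.

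The Illumina comparisons of CA1 with DG kept their sign in both series for the members named here. Wnt2 differed by 1.49 and 1.05, Fzd7 by 2.88 and 1.63, Wnt4 by -0.67 and -0.68, Fzd1 by 0.83 and 0.33, Fzd6 by -0.72 and -0.18, Dkk3 by -0.63 and -0.56, Wnt9a by 0.22 and 0.28, Fzd2 by 0.31 and 0.58 and Sfrp4 by -0.45 and -0.38, and of these that of Fzd6 was not past the threshold in the higher series (adjusted p = 0.379). The CA3 minus DG differences of Wnt4 were -0.89 and -0.84, and those of Fzd1 0.69 and 0.73. The CA1 minus CA3 differences of Wnt2 were 0.99 and 1.72 and those of Fzd7 1.06 and 1.03, each past the Illumina threshold. In the lower series Fzd7 and Wnt9a passed in CA1 against CA3 and DG in the Illumina table, but were not called for CA1 with both tables. In the Ion Proton table Wnt4 did not pass for CA1 against DG in the higher series (-0.47, adjusted p = 0.11), so it was not called for DG there. Members called against both other subfields thus differed between the series. In rats below 9000 they were Dkk3, Wnt10a and Wnt2 for CA1, Dkk3, Sfrp2, Wnt16 and Wnt9a for CA3, and Fzd1, Fzd6, Fzd7, Wnt2 and Wnt4 for DG. In rats from 9000 they were Fzd7 and Wnt2 for CA1, Wnt2 for CA3, and Dkk3, Fzd1 and Fzd2 for DG, so that Wnt2 for CA1 and Fzd1 for DG were called in both series. Shares of all genes are given further below only for CA3 in the lower and CA1 in the higher series. The lengths of these lists are therefore not read as a result about the members. Without the 12 libraries nearer to another subfield, the CA1 minus CA3 differences were 1.31 for Wnt2, 0.83 for Wnt9a, 0.93 for Fzd7 and -0.72 for Dkk3. Of these, that of Fzd7 did not pass in the Ion Proton table (0.81, adjusted p = 0.13). Differences between the number series themselves were not tested.

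**Figure D4:**
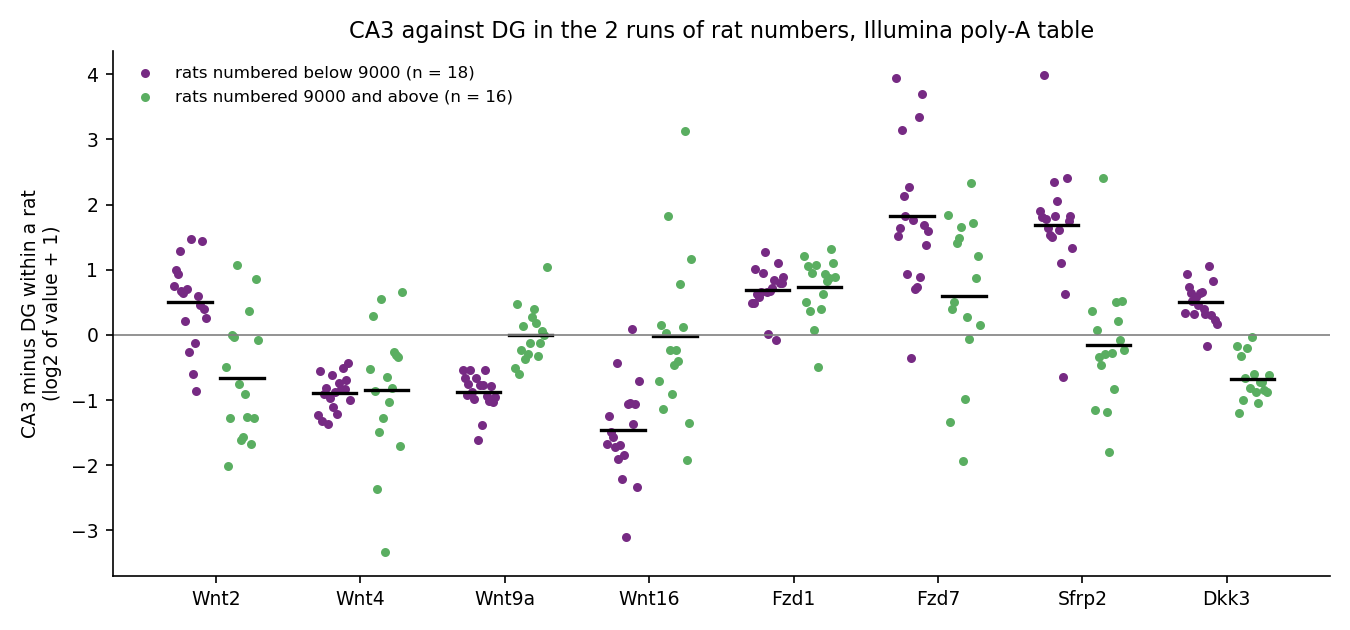
Log2 difference CA3 minus DG within each rat (Illumina) for Wnt2, Wnt4, Wnt9a, Wnt16, Fzd1, Fzd7, Sfrp2 and Dkk3, split into the 18 rats numbered below 9000 and the 16 rats from 9000, with a line at the mean. Dkk3 moves from a mean of 0.50 to -0.67 and Sfrp2 from 1.69 to -0.16, whereas Wnt4 has means of -0.89 and -0.84.

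Age was tested in each subfield as aged against young rats, and a call required p under 0.01 in the Illumina table and, with the sign unchanged, a one-sided p under 0.05 in the Ion Proton table. By this rule 0 members were called in CA1, CA3 or DG, where 0.851%, 0.402% and 1.09% of all genes were called. This count moved with the processing. In CA3, edgeR on recovered reads called 4 members (Fzd7, Sfrp1, Wnt5b and Wnt6, beside 1.13% of all genes) and DESeq2 2 (Fzd7 and Wnt10a, beside 0.696%). Leaving out the CA3 library of rat R2175, R2221, R9781, R9782 or R9867 gave 1 call, of Wnt10a, and leaving out that of R1923, R9865 or R9875 gave 1, of Fzd7. The share of all genes called was not counted in fits that leave out 1 library, so such calls have no background beside them. In DG, Wnt16 was called by edgeR (beside 1.17%), by DESeq2 (1.29%), in rats numbered below 9000 (0.682%), without the libraries high in leptomeninges or choroid plexus markers (1.53%) and without the DG library of R9881, and in CA1 it was called without the CA1 library of R2231. No member reached an adjusted p of 0.05 in the Illumina table, where 0.338% of genes in CA1, 0.00% in CA3 and 0.300% in DG did. At an unadjusted p under 0.05, 2 of 27 members passed in CA1 (7.41%, beside 6.15% of all genes), 4 of 28 in CA3 (14.3%, beside 3.31%) and 1 of 25 in DG (beside 5.20% of all genes). Those in CA3 were Wnt10a (0.86) and Wnt8b (0.50), higher in aged rats, and Fzd7 (-0.55) and Wnt11 (-0.73), lower in aged rats, and their adjusted p was 0.999. Without the libraries nearer to another subfield, all of aged rats, the CA3 differences were 0.68 (p = 0.0385) for Wnt10a, 0.46 (p = 0.0591) for Wnt8b, -0.42 (p = 0.0464) for Fzd7 and -0.58 (p = 0.0273) for Wnt11. Without the CA3 library of young rat R9876, which had the highest Fzd7 and Wnt11 of the Illumina table, they were 0.84 (p = 0.0222), 0.31 (p = 0.0873), -0.36 (p = 0.075) and -0.55 (p = 0.101). In the Ion Proton table Wnt8b went the other way (-0.14, p = 0.748). There Wnt10a differed by 1.18 (limma p = 0.00567), Fzd7 by -1.11 (p = 0.0522) and Wnt11 by -0.27 (p = 0.485). Without the libraries nearer to another subfield, Wnt11 stood at 0.15 (p = 0.65) in that table. The median log2 age difference of the members was -0.07 in CA1 (8 higher, 19 lower), -0.07 in CA3 (6 higher, 22 lower) and -0.01 in DG (12 higher, 13 lower), beside -0.0045, -0.014 and -0.0015 over all genes. Without the 10 libraries high in leptomeninges or choroid plexus markers these were -0.09, -0.08 and 0.02, with 8 higher and 19 lower in CA1 and in CA3.

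When the aged groups were set apart, 1 of 26 members was called in CA1 for aged unimpaired against young rats (3.85%, beside 0.671% of all genes), and this was Wnt16. Its CA1 level ran from 8.67 through a median of 18.4 to 42.3 in young, from 5.09 through 11.1 to 16.4 in aged unimpaired and from 7.17 through 15.1 to 55.8 in aged impaired rats. None of the 12 aged unimpaired rats was above the young median, although the ranges overlapped. The difference of aged unimpaired from young was -0.77 ± 0.26 log2 (SE, limma p = 0.00487, adjusted p = 0.414) in the Illumina and -0.99 ± 0.42 (one-sided p = 0.0123) in the Ion Proton table. Aged impaired rats differed from young by -0.25 ± 0.26 (p = 0.329), a comparison that shares the young libraries. The difference of aged unimpaired from young was -0.70 (p = 0.109) in rats numbered below 9000 and -0.83 (p = 0.0075) in those from 9000, and with both tables it was called in neither series alone. It was -0.68 (p = 0.0085) without the 10 libraries above. The call was lost when the CA1 library of young rat R2175 (-0.64), R2221 (-0.72) or R9881 (-0.70) or of aged unimpaired rat R9867 (-0.69) was left out. For aged unimpaired rats 0 members were called in CA3 (beside 0.287%) or DG (0.663%), and for aged impaired rats 0 in CA1 (0.829%), CA3 (0.351%) or DG (0.991%). With 1 library left out, aged unimpaired rats gave 1 call in CA3 (Wnt10a) without R2175, R2221, R9781 or R9867 and 2 (Fzd1 and Wnt10a) without R1923 or R9782. Aged impaired rats gave 1 call in CA1 without R1923, R9872 or R9875 (Sfrp2) or without R9869 (Wnt2), and 1 in DG without R9881 (Wnt16). As for age, the share of all genes called was not counted in these fits, so whether such calls exceed it is unknown.

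**Figure D5:**
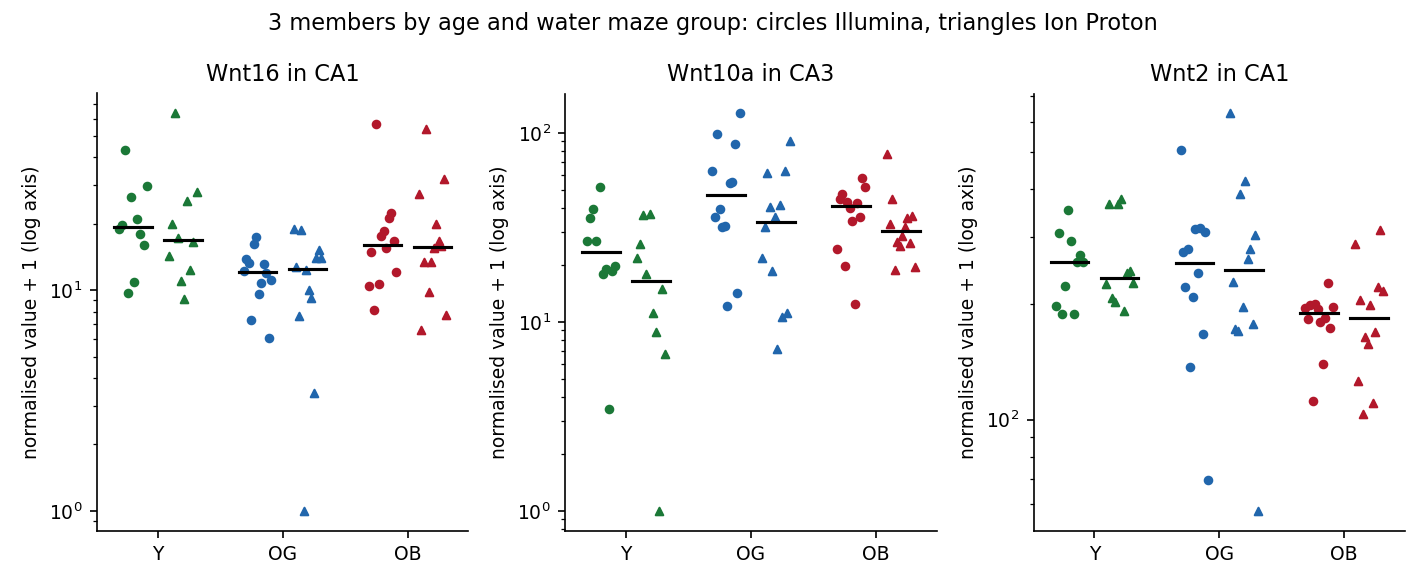
Normalised read count plus 1 (log axis) of Wnt16 in CA1, Wnt10a in CA3 and Wnt2 in CA1 by group, with circles for Illumina, triangles for Ion Proton and a line at the median. Wnt16 has an aged unimpaired median of 11.1 beside 18.4 in young rats, Wnt10a an aged median of 40.2 beside 22.3, and Wnt2 an aged impaired median of 189 beside 258, and the groups overlap in every panel.

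Wnt10a and Wnt2 were added after their values were seen. Wnt10a, a ligand of the beta-catenin arm known from teeth and hair, ran in CA3 from 2.45 through a median of 22.3 to 50.5 in young and from 11.1 through 40.2 to 126 in aged rats, where the highest value was in rat R9869, a CA3 library nearer to CA1. Of 24 aged rats, 20 were above the young median, with a difference of 0.86 ± 0.33 log2 (SE, limma p = 0.0143, adjusted p = 0.999) in the Illumina and 1.18 ± 0.40 (p = 0.00567) in the Ion Proton table. Wnt2 in CA1 had a median of 258 in young, 256 in aged unimpaired and 189 in aged impaired rats, and none of the 12 impaired rats was above the young median. Its difference of aged impaired from young was -0.47 ± 0.20 (p = 0.0256, adjusted p = 0.557). Neither passed the rule for a call as fitted. Wnt10a in CA3 was called for age with DESeq2 on recovered reads, without the most deeply sequenced rats, and when the CA3 library of rat R2175, R2221, R9781, R9782 or R9867 was left out. Wnt2 in CA1 was called for aged impaired against young, and for cognition, when the CA1 library of aged unimpaired rat R9869 was left out, which was 1 of the 12 libraries nearer to another subfield (DG).

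Cognition was tested as aged impaired against aged unimpaired rats. Of 25 members tested in CA1, 26 in CA3 and 25 in DG, 0 were called, beside 0.635%, 0.0216% and 0.124% of all genes. The study itself, with DESeq2 and these thresholds, listed Wnt6 as decreased in CA3 of impaired rats. Wnt6 had a median of 1.84 normalised reads over all Illumina libraries. At an unadjusted p under 0.05, 2 of 27 members passed in CA1 (7.41%, beside 5.71% of all genes), namely Wnt16 with 0.52 ± 0.24 log2 and Dkk3 with -0.16 ± 0.07 (SE). In CA3 1 of 27 passed (3.70%, beside 1.40%), namely Wnt7b with 0.32 ± 0.15, and in DG 0 of 25, beside 3.85%. The adjusted p was 0.848 for those in CA1 and 1.00 for Wnt7b. Age and cognition effects of the members did not differ between subfields at an adjusted p of 0.05 in limma in any table, nor with edgeR on the recovered reads, where 0.0987% of all genes did for age and 0.0141% for cognition between CA1 and CA3 in the Illumina table. At an unadjusted p under 0.05 in the Illumina table, Wnt10a and Wnt7a differed in their age effect between CA1 and CA3 (2 members, beside 1.89% of all genes) and Wnt5b between CA3 and DG (1 member, beside 1.03%). For age between CA1 and DG 0 members did so (beside 0.353%), and for cognition 0 between CA1 and CA3 (5.22%), CA1 and DG (3.74%) or CA3 and DG (2.36%). In the Ion Proton table, 2 of 27 did so for age between CA1 and DG (Wnt3 of the entry past the filter and Wnt7a, 7.41%, beside 1.37%). There 1 of 27 did so for age between CA3 and DG (Wnt5b, 3.70%, beside 1.36%) and 3 of 27 for cognition between CA1 and CA3 (Wnt16, Wnt2b and Wnt4, 11.1%, beside 4.89%). The age effect of Wnt10a in CA1 minus that in CA3 was -0.96 ± 0.38 log2 (SE, limma p = 0.0135) in the Illumina, -1.66 ± 0.57 (p = 0.00451) in the Ion Proton and -0.98 ± 0.38 (p = 0.0118) in the WT table, with an adjusted p of 1.00 in each. The cognition effect of Wnt16 in CA1 minus that in CA3 was 0.69 ± 0.45 log2 (SE, limma p = 0.131) in the Illumina, 1.503 ± 0.619 (p = 0.0169) in the Ion Proton and 1.06 ± 0.45 (p = 0.0203) in the WT table, with an adjusted p of at least 0.911.

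The rest of the pathway was read from a list of 60 genes, of which 59 were in the tables and 53 could be tested for subfield. In CA1 4 of the 53 were higher and 3 lower than in CA3, 8 were higher and 10 lower than in DG, and in CA3 9 were higher and 6 lower than in DG, where 14.4%, 26.9% and 28.5% of all genes were called. Called against both other subfields were 2 of the 53 in CA1 (beside 5.71% of all genes), 5 in CA3 (beside 6.29%) and 10 in DG (beside 15.1%). The R-spondins are secreted proteins that keep Wnt receptors at the cell surface. Of that axis, Rspo2 was lowest in CA1, where it ran from 104 through a median of 289 to 661, beside 92.1 through 642 to 1181 in CA3 and 85.3 through 639 to 935 in DG. Its CA1 level lay below CA3 by 0.80 (log2 difference -0.80 ± 0.17 SE) and below DG with -1.08 ± 0.17 (lower in 33 of 34 rats). Against CA3 this was -1.67 in rats numbered below 9000 and 0.17 in rats from 9000. Apc, part of the complex that degrades beta-catenin, was also lower in CA1, with differences of -0.36 ± 0.05 from CA3 and -0.15 ± 0.05 from DG. From CA3 it differed by -0.62 in rats below 9000 and by -0.06 in rats from 9000, and from DG by -0.19 and -0.11, and in the higher series neither passed (adjusted p = 0.519 and 0.123).

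In CA3, Frzb, a secreted Wnt-binding inhibitor related to the Sfrp family, was low, with a median of 182 beside 364 in CA1 and 401 in DG (CA3 minus DG -1.08 ± 0.14 log2, SE). Draxin, a secreted axon guidance protein that also inhibits Wnt signals, was high there, with a median of 20.6 beside 8.30 and 11.3. In DG, Vangl2, a core protein of the planar polarity arm, was high, with a median of 188 beside 106 in CA1 and 51.4 in CA3, and Kremen1, a receptor for Dkk proteins, was low, with 62.9 beside 119 and 87.5. The CA3 minus DG difference in rats below 9000 and from 9000 was -1.44 and -0.68 for Frzb, 1.70 and -0.38 for Draxin, -2.34 and -0.78 for Vangl2 and 0.41 and 0.82 for Kremen1, and that of Draxin did not pass in the higher series (adjusted p = 0.32). The CA1 minus CA3 difference passed in the higher series for neither Frzb (0.29, adjusted p = 0.421) nor Draxin (0.40, adjusted p = 0.422). Of 7 tested genes of the list of beta-catenin targets, Nkd1, Ccnd1 and Cd44 were higher in CA1 and in CA3 than in DG (3 of 7, beside 15.1% of all genes called for DG against both), and the other 4 passed in no comparison.

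Of the same list, 1 of 52 genes was called for age in DG (beside 1.09% of all genes) and 1 of 54 for cognition in CA1 (beside 0.635%). Wls, the carrier that Wnt proteins need to leave the cell, ran in DG from 372 through a median of 471 to 572 in young and from 464 through 537 to 674 in aged rats. Of 24 aged rats, 23 were above the young median, and the difference was 0.17 ± 0.05 log2 (SE, limma p = 0.00111, adjusted p = 0.168), with 0.15 ± 0.08 (one-sided p = 0.0293) in the Ion Proton table. The call was lost when the DG library of young rat R2175 (0.19), R2221 (0.13) or R9780 (0.17) was left out. It was also lost in rats numbered below 9000 (0.19, p = 0.0141), in rats from 9000 (0.16, p = 0.0359) and without the most deeply sequenced rats (0.20). Rspo2 in CA1 ran from 104 through a median of 241 to 333 in aged impaired and from 205 through 338 to 661 in aged unimpaired rats, and none of the 12 impaired rats was above the unimpaired median. The difference was -0.60 ± 0.17 log2 (SE, limma p = 0.00156, adjusted p = 0.523), with -0.68 ± 0.18 (one-sided p = 0.00028) in the Ion Proton table. It was -0.35 (p = 0.026) without the 10 libraries high in leptomeninges or choroid plexus markers, of which 6 were CA1 libraries of aged rats. In rats numbered below 9000 it was -0.29 (p = 0.0644), and in those from 9000 it was -0.95. Without the most deeply sequenced rats it was -0.53 (p = 0.0119), and the call was lost.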

How the data were processed

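RNA of CA1, CA3 and DG from 34 rats was compared in 3 deposited tables. The deposited values are a normalised signal, made by the authors as counts per gene over a DESeq2 (1.16.1) size factor of the library. Per the labels and the study's methods, Illumina reads were trimmed with cutadapt (1.8.3), aligned to rn5 with STAR (2.5) and counted with featureCounts (1.4.4), and Ion Proton reads were aligned to rn5 with TopHat2 and Bowtie2. For the WT table the aligner is not given in the sources used here. The sources name different TruSeq kits for the Illumina libraries, so it is unknown whether strand was used, and reads of genes that overlap or lie antisense to each other may be shared. Values were whole multiples of 1 read step for 100.0% of values (tolerance 0.01), and sums of these reads are the depths given. Each table was tested on its own.

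The test was limma (3.58.1, R 4.3.3) on log2(value + 1) of genes whose mean in the libraries of a fit was 10 or more, which understates changes of low genes, with Benjamini-Hochberg adjustment over all genes. Subfields were compared over all libraries, and age and cognition within a subfield. Both poly-A tables held the same rats, so agreement between them bears on technical error. The script was tested on simulated data. Alternatives were another pseudocount, other filters, quantile normalisation, edgeR (4.0.16) and DESeq2 (1.42.0) on recovered reads, the number series, a replicate block on the rat, and leaving out libraries. Named in full are members called for a subfield, age or cognition, both Wnt3 entries, and pathway genes called for age or cognition or with the 2 largest changes per subfield. The members, lists and rules were chosen with earlier results of these data known. The p-values of age and cognition within a subfield measure the spread between rats. The fits over all libraries had no block on the rat except where stated. Their p-values treat the libraries of a rat as independent. One rat gave 1 library to each subfield, and the deviations of libraries of the same rat had a median correlation of 0.05 for CA1 with CA3, 0.24 for CA1 with DG and 0.00016 for CA3 with DG.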

Additional observations from a re-analysis of the deposited data

Results flagged for a closer look

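Among the 10 young rats of each subfield, 20 of 81 sets of values held 1 library that lay far from the other 9, where about 4 would be picked by chance at 1 in 20. The sets share libraries, so the 20 are not independent of each other. In the CA3 library of young rat R9876, whose leptomeninges markers were the highest of all libraries, 6 members were high: Wnt6 stood at 620 (others 1.23 to 5.15), Sfrp1 at 342 (10.1 to 36.1), Fzd2 at 324 (83.1 to 147), Wnt5b at 229 (21.9 to 49.1), Wnt16 at 151 (lowest other 2.06) and Fzd7 at 131 (24.6 to 48.5). The CA1 library of the same rat was low for Fzd7 at 32.6 (others 55.8 to 87.8) and for Fzd1 at 155 (241 to 359).

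In CA1, young rat R2175 was high for Wnt6 at 96.6 (others 0.671 to 8.16), for Wnt5b at 94.2 (23.7 to 49.4) and for Sfrp1 at 64.0 (8.76 to 25.9). Also in CA1, rat R9879 was high for Wnt5a at 76.2 (highest other 44.7), rat R9881 was high for Wnt9a at 353 (228 to 285) and rat R9780 was low for Fzd2 at 74.9 (106 to 137). In CA3, rat R9877 was low for Wnt10a at 2.45 (17.0 to 50.5) and rat R2221 was low for Wnt3 of ENSRNOG00000003845 at 5.15 (10.7 to 18.1). In DG, rat R9881 was low for Wnt4 at 238 (458 to 719), for Wnt9a at 116 (179 to 286) and for Wnt10b at 3.68 (15.3 to 32.7), and rat R2221 was high for Wnt10a at 91.4 (27.3 to 50.3). That DG library of rat R9881 was 1 of the 10 libraries high in leptomeninges or choroid plexus markers.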

How the results depend on the processing

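Of the counts of called members, 594 values under alternatives lay within 1.5 times the reported count and 57 did not. This tally follows only the count, so a count could stay while the called members changed. Many of its values left out 1 library where the reported count was 0. Of 422 such values for single genes 386 kept their direction and call, 19 lost and 5 gained the call, and 12 changed sign, 8 of them past the threshold in neither fit. The cause of these changes was not tested. The members called for CA3 against both other subfields were 1 as reported, 2 without a filter (beside 3.68% of all genes), with a mean of at least 1 (5.41%) or without the libraries nearer to another subfield (8.85%), 3 with the Illumina and WT tables (beside 11.3% of all genes) and 4 in rats numbered below 9000 (Dkk3, Sfrp2, Wnt16 and Wnt9a, beside 11.9%). Those called for CA1 were 2 in rats from 9000 (Fzd7 and Wnt2), where Dkk3 and Wnt9a were lost (beside 1.31%), and between CA1 and CA3 7 of 25 were called in rats below 9000 (beside 21.8%) and 9 of 22 with the Illumina and WT tables (beside 24.3%). The CA3 minus DG difference changed sign to 0.50 for Wnt2 and 0.50 for Dkk3 in rats below 9000 and to 0.0009 for Wnt9a in rats from 9000, and the CA1 minus CA3 difference of Dkk3 to 0.11 in rats from 9000. Of the differences past the threshold in neither fit, the CA3 minus DG difference of Wnt2 went from -0.05 to 0.0114 with edgeR, 0.0161 with DESeq2 and 0.0425 without the libraries nearer to another subfield, that of Dkk3 from -0.05 to 0.0434, 0.0546 and 0.12 under the same settings, and the CA1 minus CA3 differences of Fzd1 from -0.12 to 0.13 in rats below 9000 and of Fzd6 from -0.11 to 0.0502 in rats from 9000.

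For age in CA3, edgeR called 4 members (Fzd7, Sfrp1, Wnt5b and Wnt6, beside 1.13% of all genes), DESeq2 2 (Fzd7 and Wnt10a, beside 0.696%) and the fit without the deepest rats 1 (Wnt10a, beside 0.566%). For age and for aged impaired against young in DG, 1 member (Wnt16) was called by edgeR, by DESeq2 and without the libraries high in leptomeninges or choroid plexus markers, an alternative added after seeing the data, and for age also in rats below 9000, beside 0.682% to 1.53% of all genes. Cognition gave 1 in CA1 without the libraries nearer to another subfield (Wnt2, beside 0.866%) and 1 in DG in rats from 9000 (Dkk3, beside 0.807%). For aged unimpaired against young, the call of Wnt16 in CA1 fell to 0 in either number series (beside 0.305% and 0.712%), and in CA3 edgeR called 2 (Wnt10a and Wnt6, beside 0.631%), the fit without the deepest rats 3 (Fzd1, Fzd7 and Wnt10a, beside 0.330%), and DESeq2 (0.438%), the series covariate (0.452%) and the fit without the marker-high libraries (0.367%) 1 each (Wnt10a). For aged impaired against young, 1 was called in CA1 by edgeR (Wnt9b, beside 1.11%), with the series covariate (Sfrp2, 1.40%) and without the libraries nearer to another subfield (Wnt2, 1.02%), and 1 in CA3 by edgeR (Wnt6, 0.911%). With 1 library left out, counts ranged from 0 to 1 for age in each subfield, for cognition in CA1, for aged unimpaired against young in CA1 and for aged impaired against young in CA1 and DG, and from 0 to 2 for aged unimpaired against young in CA3. Rspo2 then ranged from -0.66 to -0.49 and kept its call, which it lost without the most deeply sequenced rats, in rats below 9000 and without the marker-high libraries.

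With the rat as a replicate block, 4, 10 and 13 members were called in the subfield comparisons, beside 16.1%, 29.8% and 31.4% of all genes, and 4, 1 and 6 for CA1, CA3 and DG against both others (Fzd2 and Wnt7b joined for DG), beside 6.71%, 6.95% and 17.1%. For Wnt2, Wnt4, Wnt9a, Fzd1, Fzd6, Fzd7 and Dkk3 each subfield difference in the Illumina table stayed on its side of the threshold under this pairing, and 0 members differed in age or cognition effect between subfields. No paired analysis was possible within a subfield because its groups were different rats.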

Other observations

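The CA1 library of aged impaired rat R9875 had the highest Wnt9b value of the Illumina libraries, 209, beside a next highest of 43.0, and also the highest value of the Wnt3 entry ENSRNOG00000003845, 64.4. The Ion Proton table had 175 and 47.2 in that library, and in the WT table these were 75.7 and 25.2. In RefSeq (GRCr8), Wnt3 and Wnt9b lie on chromosome 10 with 0 protein-coding genes between them, as do Wnt3a and Wnt9a.

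The CA1 library of aged unimpaired rat R1930 was the highest of its subfield for Wnt2 (505), for Fzd7 (124) and for the Wnt3 entry ENSRNOG00000003039 (41.2) in the Illumina table, and had 630, 95.2 and 20.7 in the Ion Proton table. These libraries were singled out after their values were seen.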
